A study of Mus musculus with 4 samples.

Results

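Axon guidance cues are proteins that cells release to steer growing axons. Slits repel axons through Robo receptors. Netrins, which are related to laminins, attract axons through Dcc and Neo1 and repel them through Unc5 receptors, and class 3 semaphorins mostly act through complexes of a neuropilin and a plexin to collapse growth cones. In muscle, cells outside the nerve make such cues, and the same ligands also act on blood vessels and on cell migration.

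The cues described here were 10 genes chosen by name: Slit2, Slit3, Ntn1, Ntn4, Sema3a, Sema3b, Sema3c, Sema3d, Sema3e, and Sema3f, out of 20027 genes in the table. They were examined in fibroadipogenic progenitors (FAPs), the fibroblast-like interstitial cells of skeletal muscle, by RNA-Seq. The 2 cKO libraries came from male C57BL/6 mice with floxed Bap1 alleles and Prx1-Cre, a driver that acts in limb mesenchyme and so also in other limb mesenchymal cells than FAPs. The 2 WT libraries came from male C57BL/6 mice whose titles also name Prx1-Cre, while in the study the controls are floxed animals, so it is unclear which alleles these controls carry. All mice were in the second week after birth by the study's account, and cells from hind limb muscle were sorted as Sca1+ and CD31-, CD45-, and Vcam1-. Bap1 encodes a nuclear deubiquitinase, and the study compared knockout with control FAPs to learn how the gene acts in these cells.

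Levels are in RPKM, that is reads scaled to the transcript's length in kilobases and to each M of mapped reads, which allows genes of different length to be set side by side. The depth estimated from the steps between the lowest values was 41.4 to 90.4 M reads per library, and 10472 to 11195 genes reached 1 RPKM. Bap1 itself stood at 14.2 and 15.3 RPKM in the cKO libraries, against 13.95 and 12.9 RPKM in the WT libraries. Only some exons are lost from the floxed allele after Cre acts, so this whole-transcript value does not check the genotypes, and every direction rests on the labels. Pdgfra, the receptor that defines FAPs, was present in every library, at 69.7 and 51.3 RPKM in cKO and 104.4 and 135.6 RPKM in WT. Ly6a, which encodes the sort marker Sca1, had 108.4 and 47.0 RPKM in cKO and 216.4 and 119.7 RPKM in WT. It was lower in cKO in the fit described below (log2 fold change -1.16, limma adjusted p = 0.0480), a call kept in 10 of 16 alternative settings. Of the genes for markers excluded by the sort, Ptprc, which encodes CD45, reached at most 0.254 RPKM. Pecam1, which encodes CD31, had 0.537 and 1.63 RPKM in cKO and 1.67 and 3.12 RPKM in WT. Vcam1 was higher still, at 18.3 and 20.5 RPKM in cKO and 27.7 and 25.0 RPKM in WT. Libraries of the 2 groups differed in the markers of other mesenchymal cells, and those values stand beside the cues further on.

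Of the 10 cues, 9 had at least 1 RPKM in 2 or more libraries and were tested; Sema3a was below that limit. In the comparison of cKO with WT by limma on log2(RPKM + 1), 1 of the 9 was lower, 0 were higher, and 8 did not pass an adjusted p of 0.05. Over all 11197 tested genes, 42.4% passed by the same rule, 6.48% lower and 35.9% higher. At an unadjusted p under 0.05 there were 4 cues, 3 of them higher, beside 51.3% of all tested genes and 42.5% higher. The 2 groups of libraries did not overlap for 6 of the 9 tested cues, 5 higher and 1 lower, against 72.3% of all tested genes, 56.8% higher and 15.5% lower. The median log2 fold change of the 9 cues was 0.17 and that of all tested genes was 0.27. Slit2 and Sema3e passed the limit only through the cKO libraries, so their place among the 9 is not independent of their direction.

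**Figure D1:**
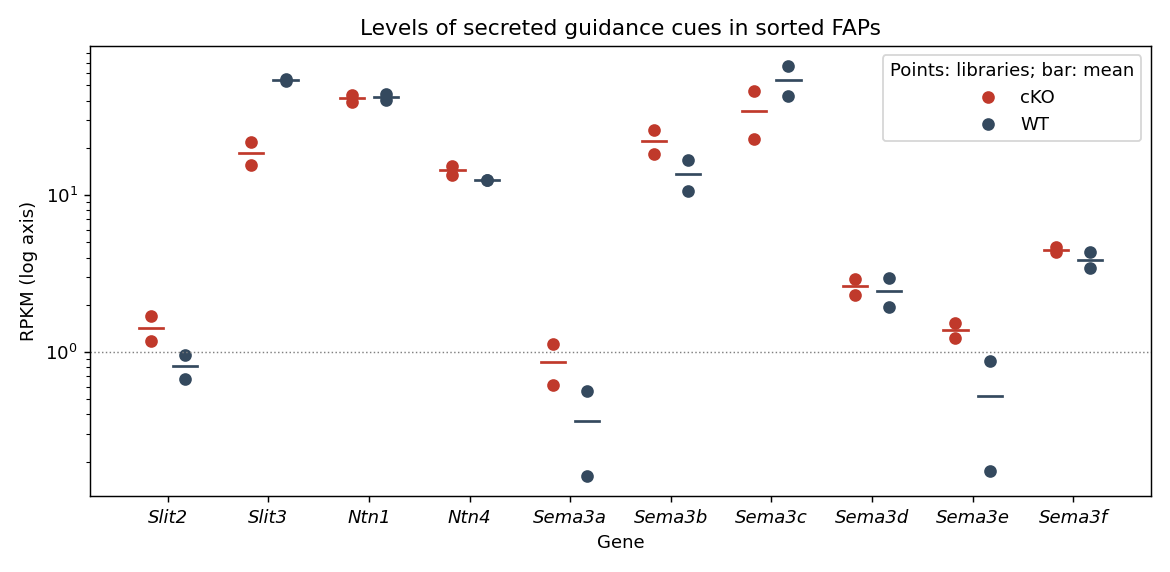
Level of each of the 10 cues in RPKM on a log axis, with 1 point per library and a bar at the group mean (n = 2 each), cKO left of WT, and a dotted line at 1 RPKM. The cKO points of Slit3, at 21.7 and 15.6 RPKM, lie well below the WT points, at 53.2 and 54.9 RPKM, whereas those of Ntn1 overlap.

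Slit3 was the cue that fell. Slit3 (NM_011412; GRCm38 chr11:35121224-35708507, plus strand, 36 exons) encodes a large secreted glycoprotein of leucine-rich and EGF-like repeats, and mice without it develop diaphragmatic hernia. Its level was 21.7 and 15.6 RPKM in cKO libraries, against 53.2 and 54.9 RPKM in WT libraries. The groups did not overlap, and the WT libraries lay close together, with means of 18.6 ± 4.31 RPKM in cKO and 54.1 ± 1.23 RPKM in WT (SD, n = 2 each). The log2 fold change of -1.50 had a 95% interval of -1.88 to -1.12 (limma adjusted p = 0.000887). Against the median gene, Slit3 differed by -1.77 on the log2 scale, and the fold change of Slit3 lay at percentile 0.335 of all tested genes. These values rested on an estimated 10250 and 3378 reads in cKO and 12917 and 25573 reads in WT. Leaving out 1 library at a time gave log2 fold changes from -1.73 to -1.28, and the call held in 15 of 16 alternative settings, ending at the adjusted p limit of 1e-05 that the study used. In bulk RNA, fewer cells that express a gene and less RNA per cell cannot be told apart, here or for any other gene.

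Slit2 (NM_178804; chr5:47983138-48307733, plus strand, 36 exons), the close relative of Slit3 and the better known repellent of commissural axons, was a low transcript. It had 1.69 and 1.17 RPKM in cKO libraries, against 0.953 and 0.676 RPKM in WT libraries. The cKO libraries were both above the WT libraries, but the log2 fold change of 0.42, with a 95% interval from 0.00 to 0.84, did not pass (limma adjusted p = 0.0973). Without cKO replicate 2 it was 0.57 and passed (adjusted p = 0.0361), without cKO replicate 1 it was 0.26 (adjusted p = 0.271), and under the 3 rescalings it was 0.18 to 0.25 (adjusted p from 0.305 to 0.422). The ratio of Slit3 to Slit2 inside a library, which a single scaling factor per library leaves as it is, was 12.8 and 13.3 in cKO and 55.8 and 81.3 in WT.

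Both Slit genes carry a microRNA hairpin in the same place, intron 14 of 35, and the mature sequences are shown because both host genes hold the same 5p microRNA. miR-218 is known as a microRNA abundant in motor neurons. RefSeq (GRCm38.p6) places its 5p arm at chr11:35616840-35616860 in Slit3 and at chr5:48223966-48223986 in Slit2, both on the plus strand of the host, and the 3p arms differ. Capitals mark the seed, bases 2 to 8, which is shared between the loci for the 5p arm only.
mmu-miR-218-5p, both hosts: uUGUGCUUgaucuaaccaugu
mmu-miR-218-2-3p, Slit3: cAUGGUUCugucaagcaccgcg
mmu-miR-218-1-3p, Slit2: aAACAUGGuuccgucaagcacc
These libraries were made for mRNA, and the mature microRNAs were not measured.

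The start regions of the 2 Slit genes are given because the genes are close relatives with unlike values in these libraries. RefSeq (GRCm38.p6) windows of 250 bases before to 50 bases after the start matched 7 of the 10 cues, and CG dinucleotides are in capitals. The Slit3 window begins at 35121206, near the GENCODE gene start of 35121224, so most of it lies inside that gene. The Slit2 window has most of its bases before the GENCODE start of 47983138. The 2 windows are thus placed differently against the GENCODE starts.
Slit3 promoter, chr11:35121206-35121505, plus strand: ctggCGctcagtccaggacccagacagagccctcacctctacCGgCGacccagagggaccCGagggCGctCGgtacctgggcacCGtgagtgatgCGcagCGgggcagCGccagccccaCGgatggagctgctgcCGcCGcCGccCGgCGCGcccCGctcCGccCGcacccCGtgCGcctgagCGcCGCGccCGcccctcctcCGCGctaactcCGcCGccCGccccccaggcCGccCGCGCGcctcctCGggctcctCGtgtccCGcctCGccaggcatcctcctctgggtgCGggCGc
Slit2 promoter, chr5:47982905-47983204, plus strand: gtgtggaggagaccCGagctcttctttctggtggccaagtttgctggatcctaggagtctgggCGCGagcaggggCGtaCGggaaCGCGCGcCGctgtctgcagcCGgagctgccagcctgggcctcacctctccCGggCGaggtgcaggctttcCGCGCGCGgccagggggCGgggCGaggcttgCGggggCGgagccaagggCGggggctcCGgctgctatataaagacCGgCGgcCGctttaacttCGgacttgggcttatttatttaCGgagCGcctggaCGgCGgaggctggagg
The Slit3 window held 41 CG dinucleotides and the Slit2 window 30, against a median of 7 over 32851 windows of the same length. Fewer CG dinucleotides than in Slit3 were found in 96.5% of those windows, and fewer than in Slit2 in 88.3%. The letters TATAAA, searched on both strands, occurred in the Slit2 window and not in the Slit3 window, and in 13.6% of all windows. These are descriptions of sequence, and no measurement of binding or methylation was made.

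Both netrins were abundant and neither passed. Ntn1 (NM_008744; chr11:68209364-68400823, minus strand), the classical netrin that guides axons at the midline, stood at 43.8 and 39.3 RPKM in cKO libraries and 44.2 and 40.5 RPKM in WT libraries. The groups overlapped, with a log2 fold change of -0.03 and a 95% interval of -0.31 to 0.26 (limma adjusted p = 0.879). Against the median gene, Ntn1 differed by -0.29 on the log2 scale. Under the 3 rescalings of the libraries its estimate was -0.38 to -0.35 and did not pass (limma adjusted p from 0.0548 to 0.0968). Ntn4 (NM_021320; chr10:93640681-93747207, plus strand), a netrin of basement membranes that binds laminin chains, had 15.4 and 13.5 RPKM in cKO and 12.5 RPKM in each WT library. Its log2 fold change of 0.19 (95% interval -0.12 to 0.50, limma adjusted p = 0.288) was negative under each of the 3 rescalings of the libraries, from -0.16 to -0.12. The ratio of Ntn1 to Ntn4 was 2.85 and 2.92 in cKO and 3.54 and 3.23 in WT.

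Among the class 3 semaphorins, Sema3c and Sema3b were the abundant ones and their estimates had opposite signs. Sema3c (NM_013657; chr5:17574281-17730268, plus strand), which is needed for the cardiac outflow tract and is also listed among the markers of Dpp4+ FAPs, had 46.2 and 22.9 RPKM in cKO, against 66.2 and 42.8 RPKM in WT. The higher cKO library lay above the lower WT library, so the groups overlapped. The log2 fold change of -0.69 had a 95% interval of -1.44 to 0.05 (limma adjusted p = 0.119). The value depended on single libraries: without WT replicate 2 it was -0.9996 (adjusted p = 0.00665), without cKO replicate 1 it was -1.18 (adjusted p = 0.00291), and among the other 2 settings that leave out a library it came as near to 0 as -0.20. With median-ratio scaling it was -1.01 and just passed (limma adjusted p = 0.0442). It did not pass with quantile or cyclic loess scaling, although its estimate lay between -1.05 and -1.01 under all 3 rescalings.

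Sema3b (NM_009153; chr9:107597674-107609229, minus strand), a ligand of neuropilins, had 26.1 and 18.3 RPKM in cKO, against 16.7 and 10.6 RPKM in WT. Both cKO libraries were above both WT libraries, and the spread within each group was wide, with means of 22.2 ± 5.52 RPKM in cKO and 13.7 ± 4.30 RPKM in WT (SD, n = 2 each). The log2 fold change of 0.67, with a 95% interval from 0.12 to 1.22, narrowly missed the limit (limma adjusted p = 0.0528). It passed with a filter at 5 RPKM (adjusted p = 0.0456), without WT replicate 1 (0.97, adjusted p = 0.00350), and without cKO replicate 2 (0.92, adjusted p = 0.0144). It was smaller under the 3 rescalings, at 0.30 to 0.36 (adjusted p from 0.271 to 0.354), without WT replicate 2 (0.37, adjusted p = 0.260), and without cKO replicate 1 (0.43, adjusted p = 0.150). The ratio of Sema3c to Sema3b was 1.77 and 1.25 in cKO and 3.96 and 4.02 in WT, so Sema3c exceeded Sema3b in every library, by less in cKO.

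The other 4 class 3 semaphorins were low transcripts. Sema3f (NM_011349; chr9:107681500-107710475, minus strand), which signals mainly through Nrp2, had 4.65 and 4.32 RPKM in cKO and 3.45 and 4.32 RPKM in WT. Its log2 fold change of 0.17 (95% interval -0.21 to 0.55, limma adjusted p = 0.425) was negative under all 3 rescalings, from -0.10 to -0.03. Sema3d (NM_028882; chr5:12383385-12588948, plus strand) had 2.93 and 2.32 RPKM in cKO and 2.95 and 1.95 RPKM in WT. The groups overlapped, and its log2 fold change of 0.08 (95% interval -0.38 to 0.54, adjusted p = 0.766) was also negative under all 3 rescalings.

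Sema3e (NM_011348; chr5:14025276-14256689, plus strand) is the member that binds Plxnd1 directly without a neuropilin. It had 1.54 and 1.22 RPKM in cKO, against 0.880 and 0.175 RPKM in WT. WT replicate 2 was far below the other libraries, on an estimated 107 reads, whereas WT replicate 1 had 281 reads. The log2 fold change of 0.68, with a 95% interval of 0.13 to 1.23, narrowly missed the limit (limma adjusted p = 0.0524). It passed without WT replicate 1 (1.02, adjusted p = 0.00826) and without cKO replicate 2 (0.77, adjusted p = 0.0453), while without WT replicate 2 it was 0.34 (adjusted p = 0.415) and under the 3 rescalings 0.39 to 0.53 (adjusted p from 0.137 to 0.208). Sema3a (NM_009152; chr5:13125414-13602565, plus strand), the prototype repellent of sensory and motor axons, had 1.12 and 0.613 RPKM in cKO, against 0.564 and 0.162 RPKM in WT. In a fit with no limit on low values its log2 difference was 0.45 (adjusted p = 0.207). Both genes were thus lowest in WT replicate 2, the more deeply sequenced of the WT libraries.

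**Figure D2:**
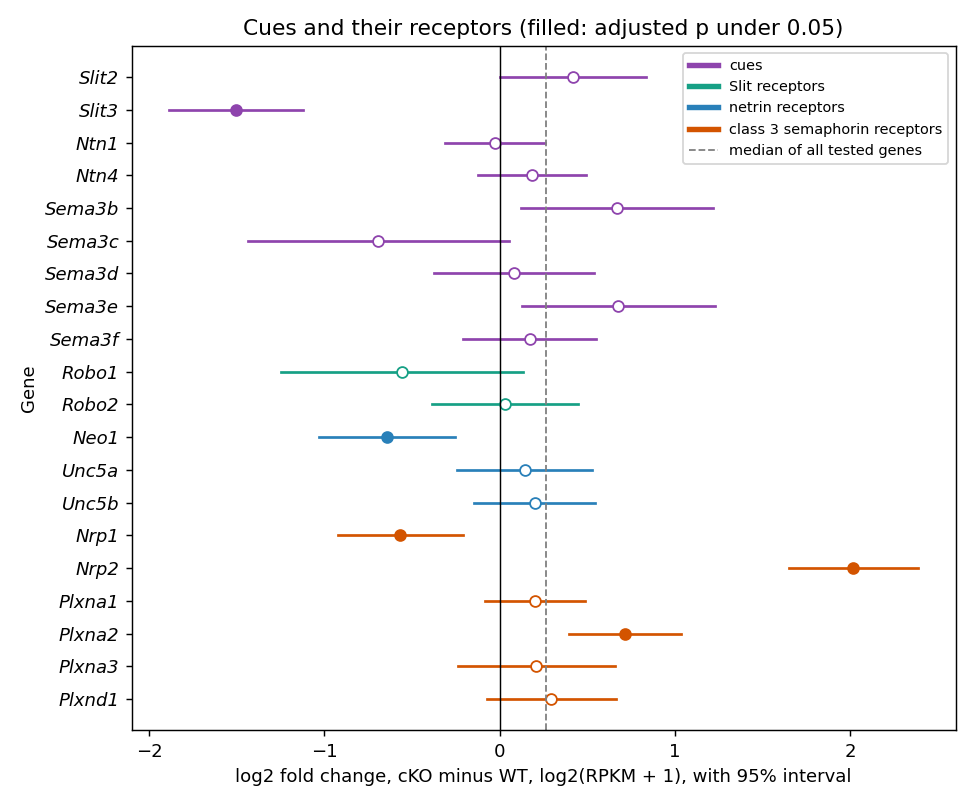
Log2 fold change of the 9 tested cues and of 11 tested receptors, cKO minus WT on log2(RPKM + 1), with 95% intervals, filled where the adjusted p was under 0.05, and a dashed line at the median of all tested genes (0.27). Slit3, at -1.50, is the only filled cue, and Nrp2, at 2.02, lies farthest to the right of all receptors.

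The order of the cues by level differed between the groups. In cKO, Ntn1 led with a mean of 41.6 RPKM, followed by Sema3c with 34.5, Sema3b with 22.2, Slit3 with 18.6, and Ntn4 with 14.4 RPKM. Neighbours among the first 4 overlapped in their library ranges and are not separated. In WT, Sema3c with 54.5 RPKM and Slit3 with 54.1 RPKM overlapped at the top, above Ntn1 with 42.3 RPKM, and Sema3b with 13.7 and Ntn4 with 12.5 RPKM overlapped below it. From Sema3f downward the order of the means was the same in both groups: Sema3f, Sema3d, Slit2, Sema3e, and Sema3a. Slit2 and Sema3e overlapped in both groups and Sema3e and Sema3a in WT, so these neighbours are not separated.

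The 10 cues summed to 165.0 and 119.3 RPKM in cKO and 201.5 and 168.7 RPKM in WT. Slit3 made up 13.1% of that sum in each cKO library, against 26.4% and 32.6% in the WT libraries. Ntn1 made up 26.5% and 33.0% in cKO and 21.9% and 24.0% in WT, although its RPKM hardly differed. The share of Sema3c was 28.0% and 19.2% in cKO and 32.8% and 25.4% in WT, with overlapping groups. Slit3 stood at 0.495 and 0.397 times Ntn1 in cKO and at 1.20 and 1.35 times Ntn1 in WT. With 2 libraries in each group, the smallest two-sided p that an exact permutation test allows is 0.33, so these shares and ratios are descriptions.

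**Figure D3:**
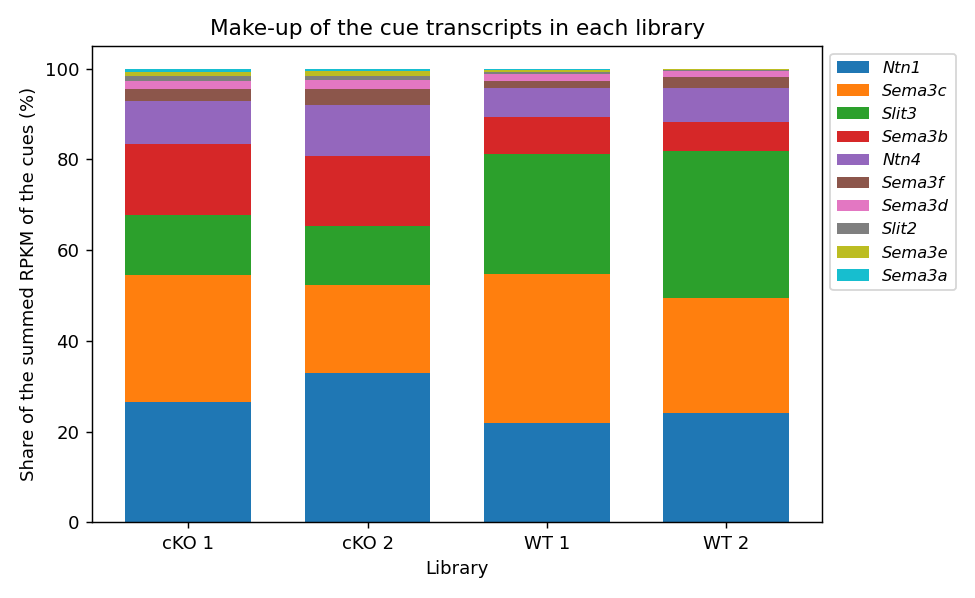
Share of each cue in the summed RPKM of the 10 cues, in percent, as 1 stacked bar per library, cKO libraries left of WT libraries. The Slit3 segment is 13.1% in both cKO bars and 26.4% and 32.6% in the WT bars.

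Receptor transcripts in these libraries of sorted cells were read from the same fit. Of 18 listed receptors of Slits, netrins, and class 3 semaphorins, 11 were tested, 2 were higher, 2 were lower, and 7 did not pass, beside 35.9% higher and 6.48% lower of all tested genes. The median log2 fold change of the 11 was 0.20. Nrp2, the neuropilin that prefers Sema3f, rose to 14.5 and 15.2 RPKM in cKO, against 2.53 and 3.33 RPKM in WT, a log2 fold change of 2.02 with a 95% interval of 1.65 to 2.39 (limma adjusted p = 0.000278). Nrp1, the neuropilin that prefers Sema3a and also binds VEGF, fell to 31.6 and 29.8 RPKM in cKO, against 39.8 and 52.9 RPKM in WT, a log2 fold change of -0.57 (adjusted p = 0.0219). The Nrp1 call rested on WT replicate 2, without which the log2 fold change was -0.37 (adjusted p = 0.218), and it also ended with no limit on low values (adjusted p = 0.071). Nrp1 exceeded Nrp2 in every library, by 2.18 and 1.96 times in cKO and by 15.7 and 15.9 times in WT.

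Of the plexins, the signalling partners of neuropilins, Plxna2 rose to 10.1 and 9.59 RPKM in cKO, against 5.57 and 5.60 RPKM in WT (log2 fold change 0.72, limma adjusted p = 0.00594). Plxna1 had 18.5 and 18.4 RPKM in cKO and 16.5 and 15.4 RPKM in WT, and Plxnd1, the receptor of Sema3e, had 16.1 and 13.3 RPKM in cKO and 10.6 and 12.9 RPKM in WT. Neither passed (adjusted p = 0.222 and 0.166 for Plxna1 and Plxnd1), and the estimates of both turned negative under all 3 rescalings.

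Neo1, a Dcc relative that binds netrins and repulsive guidance molecules, fell to 13.8 and 10.1 RPKM in cKO, against 19.8 and 18.1 RPKM in WT (log2 fold change -0.64, limma adjusted p = 0.0182). That call ended without WT replicate 1 (-0.58, adjusted p = 0.0760) and with no limit on low values (adjusted p = 0.0645). Unc5b, a netrin receptor of endothelium, had 7.62 and 6.72 RPKM in cKO and 5.77 and 6.45 RPKM in WT and did not pass (adjusted p = 0.312), and its estimate of 0.20 turned negative under all 3 rescalings. Dcc, the attractive netrin receptor of axons, was below the limit of the test, at 0.120 and 0.117 RPKM in cKO and 0.0451 and 0.0577 RPKM in WT. In a fit with no limit on low values its log2 difference was 0.09 (limma adjusted p = 0.0383).

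Robo1, the Slit receptor with the highest level in these libraries, had 9.60 and 4.25 RPKM in cKO, against 10.2 and 9.76 RPKM in WT. The cKO libraries disagreed with each other, with cKO replicate 1 next to the WT libraries, and the log2 fold change of -0.56 did not pass (limma adjusted p = 0.166). Without cKO replicate 1 it was -1.07 (adjusted p = 0.00102), and without cKO replicate 2 it was -0.05. It also passed with median-ratio and quantile scaling (adjusted p = 0.0495 and 0.0479). Robo2 stood at 2.43 and 2.22 RPKM in cKO and 1.86 and 2.69 RPKM in WT, and Robo3 and Robo4 had at most 0.342 RPKM in any library. The ratio of Slit3 to Robo1 was 2.26 and 3.67 in cKO and 5.21 and 5.63 in WT.

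Of the 7 receptors below the limit of the test, Unc5c and Plxna4 were picked out after their values were seen. Unc5c, a repulsive netrin receptor, had 0.896 and 0.712 RPKM in cKO, against 0.0249 and 0.0279 RPKM in WT, where these values stand for an estimated 11 and 24 reads. In the fit with no limit on low values its log2 difference was 0.81 (limma adjusted p = 0.0130). Plxna4, a plexin of Sema3a signalling, had 1.11 and 0.805 RPKM in cKO, against 0.322 and 0.266 RPKM in WT (adjusted p = 0.0291 in that fit).

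Proteins that hold or process the cues outside the cell formed the next list. Of 12 tested genes, 5 were higher and 0 were lower, beside 35.9% and 6.48% of all tested genes in those directions. At an unadjusted p under 0.05 there were 6. The list holds 6 heparan sulfate proteoglycans, the family that binds Slits at the cell surface, of which 4 were higher and 2 did not pass. Sdc3, a syndecan, stood at 40.3 and 39.0 RPKM in cKO, against 4.35 and 4.92 RPKM in WT (log2 fold change 2.85, limma adjusted p = 2.4e-05). Gpc1, a glypican, stood at 45.7 and 45.9 RPKM in cKO, against 8.83 and 9.13 RPKM in WT (2.23, adjusted p = 4.75e-05), and Sdc1 at 45.5 and 44.8 RPKM in cKO, against 11.1 and 12.6 RPKM in WT (1.85, adjusted p = 0.000138). Sdc4 rose by less, with a log2 fold change of 0.90 (adjusted p = 0.00301). Those that did not pass were Gpc3, a glypican with 323.0 and 443.8 RPKM in cKO and 539.2 and 461.6 RPKM in WT (-0.40, adjusted p = 0.117), and Sdc2 (0.16, adjusted p = 0.351). The fifth was Furin, the protease that cleaves class 3 semaphorins, with a log2 fold change of 0.58 (adjusted p = 0.00951), named after its value was seen.

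Intracellular effectors of guidance receptors had 13 genes higher, 1 lower, and 10 not passing of 24 tested, beside 35.9% higher and 6.48% lower of all tested genes, with a median log2 fold change of 0.49. One of the 13, Dpysl4, reached the limit of the test through the cKO libraries alone. Rnd1, a protein that binds plexins, had 30.2 and 21.5 RPKM in cKO, against 7.82 and 5.55 RPKM in WT (log2 fold change 1.80, limma adjusted p = 0.00106). Pak1, a kinase downstream of Rac and Cdc42, had a log2 fold change of 1.10 (adjusted p = 0.00342), and Trio, an exchange factor for Rac used by netrin receptors, had 0.96 (adjusted p = 0.00148). Nck2, an adaptor, had 0.70 (adjusted p = 0.00673), a call that ended under all 3 rescalings. The lower gene, named after its value was seen, was Ablim1, an actin-binding protein, with 11.4 and 6.71 RPKM in cKO, against 16.5 and 17.7 RPKM in WT (-0.89, adjusted p = 0.0151). Over the guidance genes that are neither cues nor receptors of the cues, 23 were higher and 4 lower of 55 tested, near the shares of all tested genes. Under the 3 rescalings 12 to 15 of the 55 were higher and 10 lower, while over all 11197 tested genes 1661 to 1885 were higher and 1593 to 1818 lower.

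**Figure D4:**
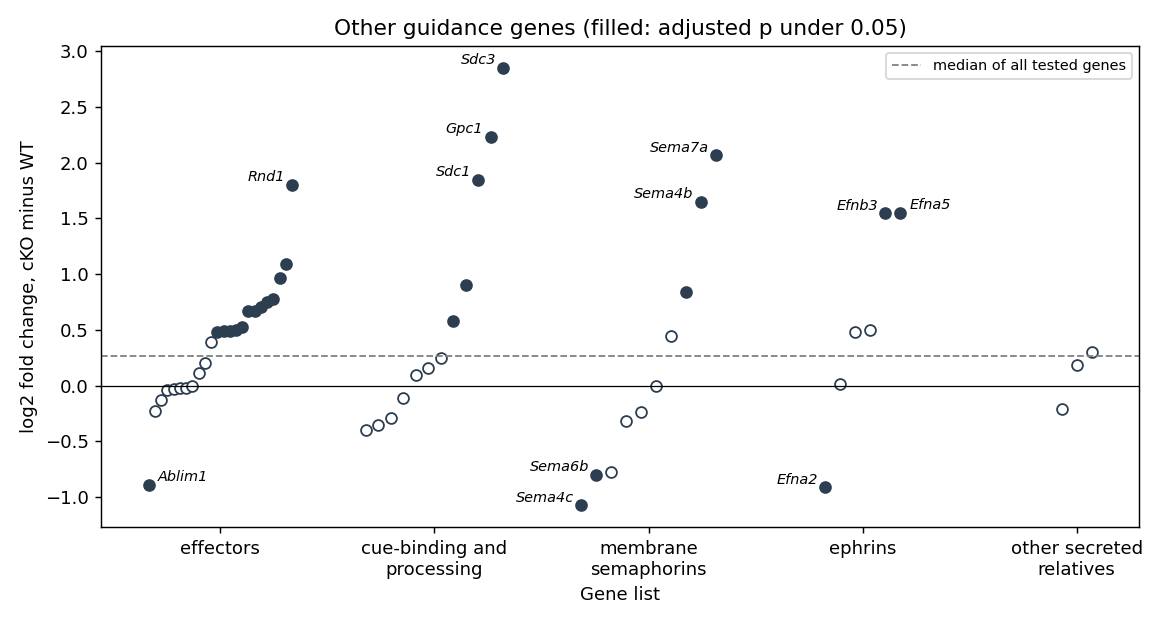
Log2 fold change, cKO minus WT on log2(RPKM + 1), of tested genes in 5 further guidance lists, 1 point per gene sorted within its list, filled where the adjusted p was under 0.05, with a dashed line at the median of all tested genes (0.27). Sdc3, at 2.85, is the highest point, and Sema4c, at -1.07, the lowest.

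Marker genes of FAPs and of other cells also moved in this comparison, in which 35.9% of all tested genes were higher and 6.48% lower. Of the FAP identity markers, 11 of 14 were lower and 0 higher, and their summed level was 19504 and 17034 RPKM in cKO and 40434 and 37467 RPKM in WT. The largest part of that sum was Col3a1, with 6057 and 5733 RPKM in cKO and 16567 and 15075 RPKM in WT. Chondrocyte markers were higher in 12 of 12, summing to 2505 and 2144 RPKM in cKO and 37.8 and 29.5 RPKM in WT, with Col2a1, the collagen of cartilage, at 1492 and 1294 RPKM in cKO and 1.70 and 2.00 RPKM in WT. Tenocyte markers were higher in 6 of 7, and without the seventh, the immediate early gene Egr1, they summed to 1640.5 and 1382 RPKM in cKO and 189.5 and 176.6 RPKM in WT (2352 and 1683 RPKM in cKO and 704.6 and 1230 RPKM in WT with it). Perineurial markers were higher in 6 of 6 (137.5 and 196.4 RPKM in cKO, 43.9 and 39.5 RPKM in WT), and pericyte and smooth muscle markers in 7 of 10 (388.3 and 491.0 RPKM in cKO, 96.1 and 131.0 RPKM in WT). Schwann cell markers were higher in 5 of 7 tested, with sums of 54.0 and 62.0 RPKM in cKO and 29.2 and 33.2 RPKM in WT. Myofiber markers moved the other way, lower in 6 of 7 tested with a median log2 fold change of -1.45, and summed to 23.4 and 22.1 RPKM in cKO and 63.6 and 85.8 RPKM in WT. Endothelial markers were higher in 2 of 6 tested and lower in 0 (36.6 and 39.5 RPKM in cKO, 28.4 and 31.2 RPKM in WT). Hematopoietic markers were higher in 1 of 2 tested (6.76 and 10.4 RPKM in cKO, 5.59 and 6.82 RPKM in WT). Muscle stem cell markers were higher in 1 and lower in 1 of 3 tested (50.2 and 64.9 RPKM in cKO, 39.2 and 39.1 RPKM in WT). Some markers reached the limit of the test through 1 group alone, among them 5 chondrocyte, 3 perineurial, and 2 tenocyte markers through cKO and 2 myofiber markers through WT. Of 9 neuronal markers, 5 were below 1 RPKM in every library, and Chat, which marks motor neurons, was at most 0.00551 RPKM. Of the 3 neuronal markers tested, 1 was higher and 0 lower. The higher one was Nefm, with 7.92 and 10.3 RPKM in cKO, against 5.84 and 5.81 RPKM in WT (log2 fold change 0.56, limma adjusted p = 0.0281). The part of these cells in the values of the cues and receptors was not tested.

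Markers of both FAP subpopulations included genes that fell. The Cxcl14+ FAP markers were lower in 4 of 10 and higher in 1, with a median log2 fold change of -0.55 and sums of 2084 and 2580 RPKM in cKO and 2605 and 2895 RPKM in WT. The Dpp4+ FAP markers were lower in 4 of 10 and higher in 0, with a median of -0.50. They summed to 654.9 and 454.6 RPKM in cKO and 1208 and 837.0 RPKM in WT, a sum that includes Sema3c. Most of that sum was Fn1, with 443.3 and 343.1 RPKM in cKO and 774.1 and 564.6 RPKM in WT. Dpp4 itself had 5.71 and 2.00 RPKM in cKO, against 18.1 and 8.59 RPKM in WT (log2 fold change -1.59, limma adjusted p = 0.0195). Cxcl14 itself overlapped between the groups, with 112.0 and 113.1 RPKM in cKO and 98.6 and 131.0 RPKM in WT. It did not pass (log2 fold change -0.01, limma adjusted p = 0.949). The ratio of Sema3c to Dpp4 was 8.08 and 11.5 in cKO and 3.65 and 4.99 in WT. The ratio of Slit3 to Pdgfra was 0.311 and 0.304 in cKO and 0.510 and 0.405 in WT. Over all 14 FAP identity markers, the ratio of Slit3 to the marker was lower in cKO without overlap for 10, higher without overlap for 2, and overlapping for 2. The higher ones were Osr1 (6.68 and 11.6 in cKO, 5.03 and 4.21 in WT) and Pdgfrl (0.645 and 0.456 in cKO, 0.320 and 0.313 in WT), and the overlapping ones were Ly6a and Col3a1. These ratios restate the fold changes, since Slit3, at percentile 0.335 of all tested genes, falls against most genes. Whether Slit3 fell beyond the FAP markers was not tested.

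**Figure D5:**
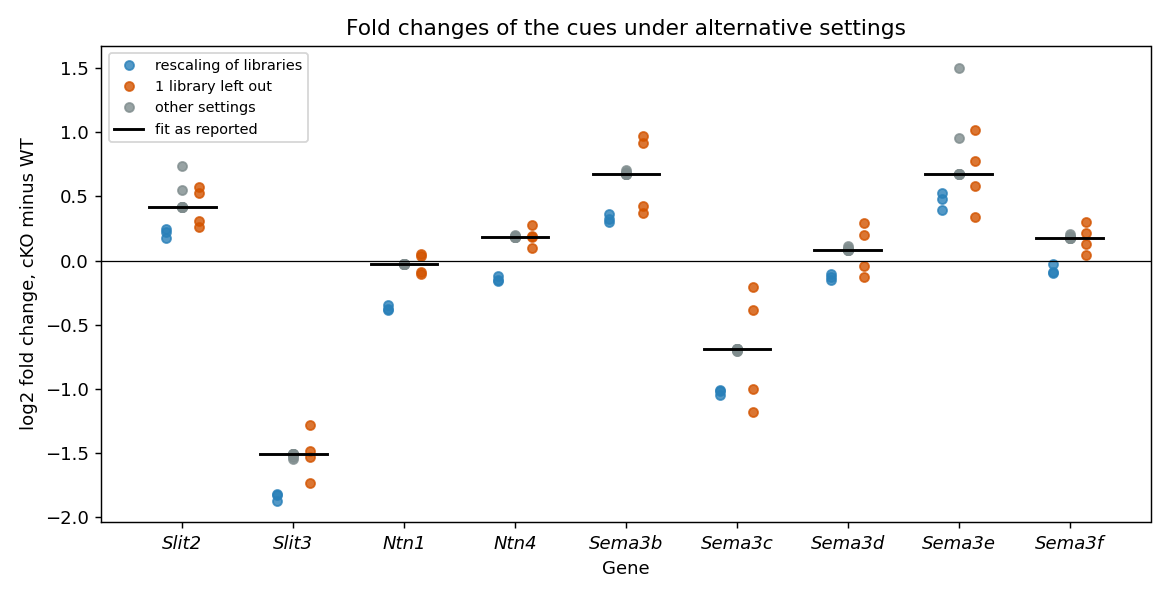
Log2 fold change of the 9 tested cues, cKO minus WT, with a black bar at the value reported, blue points for the 3 rescalings, orange points for the 4 fits with 1 library left out, and grey points for the other settings. The Slit3 points lie between -1.87 and -1.28, all below 0, whereas the points of Ntn4, Sema3d, and Sema3f lie on both sides of 0.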

How the data were processed

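Cells were freshly sorted by the study's authors from hind limb muscle, and TruSeq libraries were sequenced as paired ends. The authors deposited RPKM values for 20027 genes with 1 RefSeq accession each. The submitters' processing notes list edgeR, bedtools, and TopHat2 (version 2.0.9) as tools, and both mm10 and mm9 as builds, without their roles. The annotation, the counting rule, and the use of strand are not given in the sources used here. Because RPKM is a share of the library, strong changes of abundant genes shift the other values. Genes without reads held a small value in a fixed ratio between libraries. Depth was estimated from the steps above it, taking 2.5 times that value as 1 read. Of 1244 low values examined, 60.2% lay within 0.02 of a whole step, so whole reads were not recovered, no count model was used, and estimated reads are approximate.

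The 11197 genes that reached 1 RPKM in at least 2 libraries were compared, cKO minus WT, with limma (version 3.58.1, R 4.3.3), lmFit and eBayes with a trend on log2(RPKM + 1), two-sided, with Benjamini-Hochberg adjustment over all tested genes and a limit of 0.05. Fold changes on this scale understate those of low genes. The titles number 1 male per library, and p-values measure the spread between these libraries only. Gene lists were read from the whole-table fit and were not tested as lists. The cues and lists were chosen with earlier results of these data known. The genes named were all 10 cues, up to 4 genes of each guidance list that passed with the smallest p, receptors with a mean of at least 5 RPKM in a group, and checks of the sort, and exceptions are stated. The pipeline was tested on simulated data. Alternatives were cyclic loess, quantile, and median-ratio scaling, other pseudocounts (0.1 and 0.5), a filter at 5 RPKM or none, a robust eBayes or one with no trend, a block on replicate numbers, leaving out each library, an adjusted p limit of 1e-05, and a minimum fold of 2. Positions are from GENCODE for GRCm38 and sequences from RefSeq for GRCm38.p6, and the authors' build may be another. Among the exons of the 10 cues, none overlapped an exon of another gene on either strand. All columns of values were used. Figures were drawn with matplotlib.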

Additional observations from a re-analysis of the deposited data

How the results depend on the processing

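With 2 libraries per group, leaving out 1 leaves a lone library that is assumed to vary like the rest. The precision of every value is limited by the number of libraries, and that of genes with few estimated reads also by depth. The median gene had a log2 fold change of 0.27, which median-ratio, quantile, and cyclic loess scaling brought to between -0.02 and -0.0012, and the share of calls that were higher was 84.7% as reported and 51.0%, 49.4%, and 52.4% under these 3 scalings. The cause of each change below was not tested. Over all tested genes, 1661, 1777, and 1885 were higher under the 3 scalings in place of 4016, and 1593, 1818, and 1710 lower in place of 726. Leaving out 1 library gave 2386 to 4044 higher and 390 to 1258 lower. At the limit of 1e-05 there were 5 higher and 0 lower, and with a minimum fold of 2 there were 879 higher and 168 lower. Of the cues, 1 was higher with the filter at 5 RPKM and 0 to 3 with 1 library left out. The lower cues numbered 2 with median-ratio scaling, 1 or 2 with 1 library left out, and 0 at the limit of 1e-05. Of the receptors, 5 were higher and 0 lower with no filter, 0 higher and 0 lower at the limit of 1e-05, and 1 higher and 0 lower at the minimum fold, with 1 to 3 lower when 1 library was left out. Of the other guidance genes, 12, 13, and 15 were higher and 10, 10, and 10 lower under the 3 scalings, 0 and 0 at the limit of 1e-05, and 9 and 1 at the minimum fold.

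Over all tested genes, the differences between replicates 1 and 2 in the 2 groups had a correlation of -0.30. Single genes varied: Dpp4, Sema3b, and Sema3c were higher in replicate 1 of both groups. Slit3 and Sema3f were higher in replicate 1 of cKO and in replicate 2 of WT. The labels do not say whether the numbers pair libraries, and a correlation cannot settle it. With the replicate number as a replicate block, 2 cues were higher (Sema3b and Sema3e) and 2 lower (Slit3 and Sema3c) in place of 0 and 1, and Robo1 was also lower (limma adjusted p = 0.0295). With the crossed pairing, an alternative chosen after seeing the data, 4807 genes were higher and 1088 lower over all tested genes, and 1 cue was higher and 1 lower.

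Estimates that turned sign, in the order median-ratio, quantile, and cyclic loess scaling, were those of Ntn4 (-0.12, -0.15, and -0.16), Sema3d (-0.15, -0.13, and -0.10), Sema3f (-0.0905, -0.0963, and -0.029), Unc5b (-0.0837, -0.076, and -0.0675), Plxna1 (-0.11, -0.14, and -0.17), Plxnd1 (-0.0077, -0.0444, and -0.0496), and Bap1 (-0.17, -0.22, and -0.22). Ntn1 was at 0.0334 without WT replicate 1 and 0.0489 without cKO replicate 2, Sema3d at -0.13 without WT replicate 2 and -0.0401 without cKO replicate 1 (range -0.13 to 0.29 over the 4 libraries left out), and Cxcl14 at 0.19 without WT replicate 2. None of these passed the limit as reported.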

Other observations

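Guidance ligands outside the secreted cues were read from the same fit. Of 13 membrane-bound or anchored semaphorins, 10 were tested, with 3 higher, 2 lower, and 5 not passing, beside 35.9% higher and 6.48% lower of all tested genes. Sema7a, a lipid-anchored semaphorin that promotes axon growth through integrins, had 19.8 and 28.7 RPKM in cKO, against 4.19 and 5.79 RPKM in WT (log2 fold change 2.07, limma adjusted p = 0.000691). Sema4b had 4.70 and 5.46 RPKM in cKO, against 0.999 and 0.871 RPKM in WT (1.65, adjusted p = 0.000584), and was tested only because it reached 1 RPKM in cKO. Sema4c, a ligand of plexin B2, fell to 15.8 and 12.1 RPKM in cKO, against 30.5 and 30.1 RPKM in WT (-1.07, adjusted p = 0.00205), and Sema6b fell to 4.12 and 3.93 RPKM in cKO, against 7.57 and 7.93 RPKM in WT (-0.80, adjusted p = 0.00472). The groups did not overlap for these 4 genes, which were named for their small p, nor for 72.3% of all tested genes.

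Ephrins, the membrane-bound ligands of Eph receptors that sort axons by contact, had 2 higher, 1 lower, and 3 not passing of 6 tested, a number too small to set against the 35.9% higher and 6.48% lower of all tested genes. Efnb3, a midline barrier for corticospinal axons, had 5.32 and 5.17 RPKM in cKO, against 1.27 and 1.01 RPKM in WT (log2 fold change 1.55, limma adjusted p = 0.000692). Efna5, a repellent of retinal axons, had 3.26 and 4.23 RPKM in cKO, against 0.730 and 0.503 RPKM in WT (1.55, adjusted p = 0.00103), and was tested only because it reached 1 RPKM in cKO. Efna2 had 1.40 and 1.19 RPKM in cKO, against 3.37 and 3.26 RPKM in WT (-0.91, adjusted p = 0.00387). Of 7 further secreted relatives of the cues, 3 were tested and 0 passed by limma, also 0 at an unadjusted p under 0.05. Sema3g, below the limit of the test and named after its value was seen, had 0.968 and 1.48 RPKM in cKO, against 0.189 and 0.405 RPKM in WT.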
